A study of Macaca mulatta with 30 samples.

Results

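The lung lineage transcription factors followed here are NKX2-1, FOXA1, FOXA2, SOX2, SOX9, GATA6, CEBPA, TBX4 and TBX5, DNA-binding proteins that direct how the embryonic lung forms and which cells it makes. Genes were taken from the lung count table by their Ensembl rhesus macaque symbol. Of the 9 genes listed, 5 were matched, and these are 5 of 30246 gene identifiers in the table. They are NKX2-1 (ENSMMUG00000009641), FOXA2 (ENSMMUG00000010410), GATA6 (ENSMMUG00000010944), CEBPA (ENSMMUG00000006124) and TBX5 (ENSMMUG00000016202). FOXA1, SOX2, SOX9 and TBX4 were not matched to a row by symbol and are not analysed here. All 5 matched genes passed the filter on low counts.

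Fetal lungs came from wild type rhesus macaques, with 3 fetuses in each of 5 groups, and each library was made from RNA of frozen lung tissue. The paper calls it whole lung tissue, and its methods name samples of the right lower lobe. The pregnant mothers received intramuscular saline (control), the clinical drug Celestone (0.25 mg/kg), which mixes betamethasone-phosphate with betamethasone-acetate, or betamethasone-acetate alone (Beta-Ac, 0.125 mg/kg). Delivery followed the clinical drug by 4 h or 5 days and Beta-Ac by 6 h or 5 days, and the labels give gestational days 124 to 130 for every lung sample. Dose and time therefore differed together with formulation in the early comparison of the drugs, and dose differed with formulation at 5 days. Such tissue mixes epithelium, mesenchyme, vessels and other cells, so fewer cells of a type and less RNA per cell cannot be told apart in any result below.

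The lung epithelium arises from foregut endoderm. NKX2-1 is a homeodomain protein that marks this endoderm from its specification and later activates surfactant protein genes, FOXA2 is a forkhead factor that opens chromatin at many of the same genes, GATA6 is a zinc finger factor of distal epithelium and of heart, and CEBPA is a leucine zipper factor needed for the maturation of alveolar type II cells. TBX5 and TBX4 are T-box factors of the surrounding mesenchyme, where they promote budding and branching of the airways, and TBX5 also acts in the heart. SOX2 marks proximal airway epithelium and SOX9 the distal tips.

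Lung libraries held 14.1 to 45.0 M reads on genes. Levels are given in CPM, counts per 1 M reads, scaled by TMM normalization, which corrects each library by a factor set from the bulk of its genes. These factors were lower at 4 h after the clinical drug than in any other group. Calling a gene differentially expressed took 3 limits in edgeR's quasi-likelihood test, p below 0.05, Storey's q below 0.1 and a change of 1.5-fold or more. The test was fitted once on all 15 lung libraries and 17644 genes, and every q below comes from it. Each fetus contributed 1 library, and no levels are compared between genes because gene lengths were not used.

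**Figure D1:**
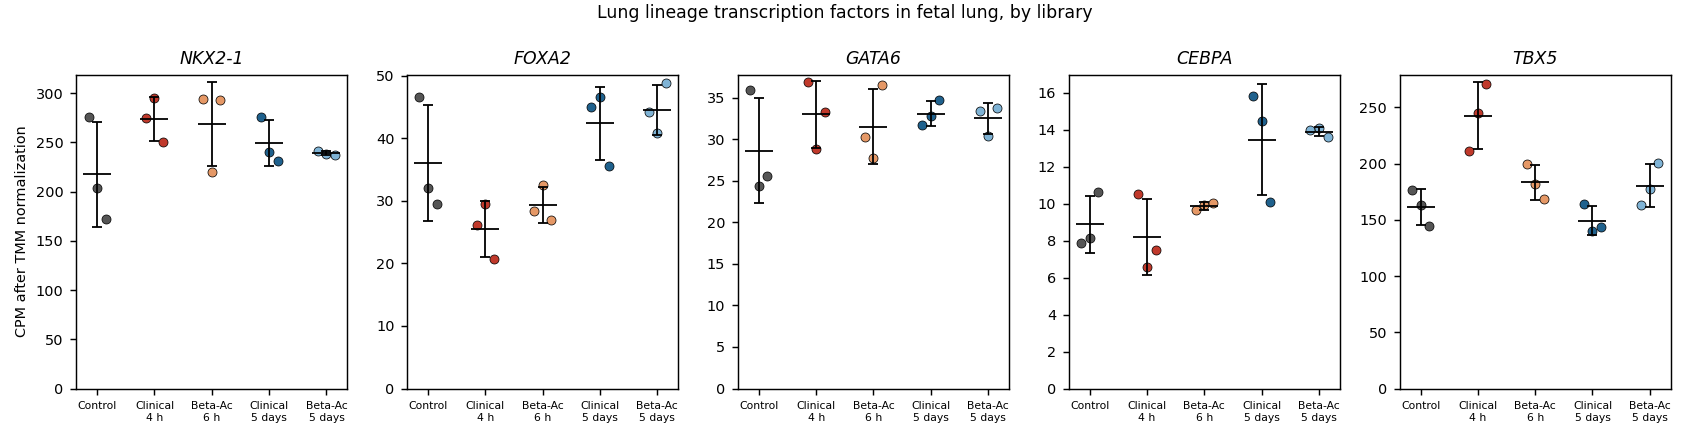
Levels of the 5 matched factors in each lung library, in CPM after TMM normalization (vertical axes, starting at 0), by group (horizontal axis, 3 libraries per group). Points are libraries, horizontal lines are means and bars are 1 SD; the TBX5 points at 4 h after the clinical drug, from 211 to 271 CPM, lie above all other TBX5 points, and the FOXA2 points at 4 h, from 20.7 to 29.5 CPM, lie among the lowest.

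TBX5 rose at 4 h after the clinical drug and was the only matched factor called in a comparison with control. In controls it stood at 177 CPM in animal 15-92, 163 in animal 15-101 and 145 in animal 16-113. At 4 h after the clinical drug it stood at 211 CPM in animal 15-81, 245 in animal 15-85 and 271 in animal 15-97. All of these libraries lay above every control and above every other lung library. The mean was 242 ± 29.8 CPM (SD, n = 3) against 161 ± 16.1 CPM in controls (SD, n = 3), a fold change of 1.502 and a log2 fold change of 0.59 ± 0.12 (SE, edgeR q = 0.00620). The fold change sat at the threshold itself. Under 9 of 12 other settings it fell below 1.5, while q stayed under 0.1 in all 12 and the log2 fold change ran from 0.47 to 0.66. Among the libraries left out in turn, the call was lost without 15-85 (0.57), without 15-97 (0.49) and without control 16-113 (0.51).

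At 6 h after Beta-Ac, TBX5 was measured at 199.9, 182 and 169 CPM in animals 16-123, 16-131 and 17-254. These levels overlapped with those of the controls, and the log2 fold change was 0.18 (95% interval -0.07 to 0.44, edgeR q = 0.428). At 5 days it was measured at 164, 139.7 and 144 CPM after the clinical drug and at 163, 177 and 201 CPM after Beta-Ac. Neither group stood apart from controls, with log2 fold changes of -0.11 (edgeR q = 0.931) and 0.16 (edgeR q = 0.812). From the highest mean to the lowest the order was the clinical drug after 4 h, then Beta-Ac after 6 h and after 5 days, control, and the clinical drug after 5 days. Only the first pair of neighbours in this order had libraries that did not overlap.

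Among the marker lists, cartilage and basal airway markers separated from controls at 4 h. The summed level of 9 of 13 cartilage marker genes was 328 to 463 CPM at 4 h against 139 to 268 CPM in controls. It was also 279.7 to 589 CPM at 6 h after Beta-Ac, where TBX5 was not called. Basal airway markers, 2 of 5 genes, summed to 4.11 to 7.55 CPM at 4 h against 7.67 to 14.0 CPM in controls. These genes are NGFR, with a median of 7.02 CPM over the 15 lung libraries, and TP63, with 2.19 CPM. TP63 alone went the other way, with a log2 fold change of 0.67 at 4 h (edgeR q = 0.499). Library 15-85 held the lowest immune marker sum of the lung libraries, 71.5 CPM from 6 of 6 genes. Heart muscle, the other main site of TBX5, was read from 4 of 8 marker genes, which summed to 3.96 to 13.2 CPM at 4 h and to 7.91 to 10.7 CPM in controls, which overlap. Within that list MYH7, the slow cardiac myosin, had a median of 0.06 CPM over the 15 lung libraries, and NPPA, the atrial natriuretic peptide, had 0 reads in 9 of them. ACTC1 and MYL7, the rest of that list, had reads in every lung library, with medians of 5.87 and 2.97 CPM. The mesenchymal marker sum, from 6 of 7 genes, ran from 13251 to 15417 CPM at 4 h and from 11963 to 17927 CPM in controls, which overlap too. All 3 animals at 4 h had numbers beginning with 15, as did 2 of the 3 controls, and leaving out control 16-113 restricts the comparison to those animals. The part of cartilage, basal airway or immune content in the results for TBX5 and FOXA2 at 4 h was not tested.

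FOXA2 had its lowest means soon after treatment and its highest at 5 days. In controls it stood at 46.6, 32.1 and 29.4 CPM in animals 15-92, 15-101 and 16-113. At 4 h after the clinical drug it stood at 26.2 CPM in animal 15-81, 29.5 in animal 15-85 and 20.7 in animal 15-97. One of these libraries lay just above the lowest control, so the groups overlapped. The mean was 25.5 ± 4.48 CPM (SD, n = 3) against 36.1 ± 9.26 CPM (SD, n = 3), a log2 fold change of -0.50 ± 0.18 (SE, edgeR q = 0.0855). FOXA2 thus passed the limits on p and q but not that on fold change. The value leaned on single animals. It was -0.29 without control 15-92 (edgeR q = 0.314), and it met all 3 limits at -0.63 without control 16-113 (edgeR q = 0.0624) and at -0.63 without 15-85 (edgeR q = 0.0708). It also met them at -0.62 without normalization factors (edgeR q = 0.0406), where TBX5, at 0.47, did not.

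At 6 h after Beta-Ac, FOXA2 was measured at 28.3, 32.5 and 27.0 CPM, within or below the control range. The log2 fold change was -0.30 (95% interval -0.68 to 0.08, edgeR q = 0.404). At 5 days it was measured at 44.9, 46.5 and 35.6 CPM after the clinical drug and at 44.1, 40.8 and 48.8 CPM after Beta-Ac. These levels overlapped with the control animal 15-92 and lay above the other controls. The log2 fold changes against control were 0.23 (edgeR q = 0.931) and 0.31 (edgeR q = 0.768).

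CEBPA had its highest means in both groups at 5 days. Controls held 7.85, 8.15 and 10.6 CPM. At 5 days after Beta-Ac the libraries held 14.0, 14.1 and 13.6 CPM, all above every control. At 5 days after the clinical drug they held 15.9 and 14.5 CPM in animals 16-115 and 16-120 and 10.1 CPM in animal 16-126, which lay below the highest control. Endothelial markers, 6 of 7 genes, also separated from controls at 5 days after Beta-Ac, with sums of 2507 to 2682 CPM against 2914 to 3447 CPM, and their part in the CEBPA levels was not tested. The means of CEBPA were 13.9 ± 0.234 CPM after Beta-Ac and 13.5 ± 3.01 CPM after the clinical drug against 8.88 ± 1.53 CPM in controls (SD, n = 3 each). The log2 fold change was 0.64 ± 0.20 after Beta-Ac (SE, edgeR unadjusted p = 0.00618, q = 0.665) and 0.60 ± 0.20 after the clinical drug (SE, edgeR unadjusted p = 0.00979, q = 0.931). Both fold changes exceeded 1.5 and neither passed the correction over all genes. All animals at 5 days had numbers beginning with 16. Of the controls only 16-113 did, and it held the highest control level, 10.6 CPM, while the others began with 15. The part of whatever the number stands for was not tested, for CEBPA or for the other factors at 5 days. Taking both drugs at 5 days together, a comparison added after the levels were seen, gave 0.62 ± 0.18 (SE, edgeR q = 0.599).

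Soon after treatment CEBPA stayed near the control level. It was measured at 10.5, 6.58 and 7.51 CPM at 4 h after the clinical drug, which overlapped with the control range. It was measured at 9.66, 9.94 and 10.03 CPM at 6 h after Beta-Ac, the narrowest group of the early ones. The log2 fold changes were -0.10 (95% interval -0.54 to 0.33, edgeR q = 0.582) and 0.15 (95% interval -0.28 to 0.58, edgeR q = 0.615). The first rested on single libraries, with 0.0496 without control 16-113, 0.0126 without 15-85 and -0.35 without 15-81. CEBPA was read from 88 to 454 reads per library, the smallest counts among the matched factors.

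NKX2-1 had a higher mean in every treated group than in controls, without passing the test in any. Controls spread widely, with 276 CPM in animal 15-92, 204 in animal 15-101 and 173 in animal 16-113. The clinical drug gave 275, 295 and 250.3 CPM at 4 h and 276, 241 and 231 CPM at 5 days. Beta-Ac gave 294, 219.6 and 293 CPM at 6 h and 242, 238 and 237 CPM at 5 days. The control animal 15-92 lay inside or above all of these groups, so none was separate from controls. The log2 fold change at 4 h was 0.33 ± 0.15 (SE, edgeR unadjusted p = 0.0495, q = 0.182). At 6 h after Beta-Ac it was 0.31 ± 0.15 (SE, edgeR q = 0.352), and at 5 days it was 0.20 and 0.14 for the clinical drug and Beta-Ac (edgeR q = 0.931 and 0.877). Without 15-92 the value at 4 h was 0.52 (edgeR q = 0.0382), still under the fold change required.

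GATA6 varied least of the 5. Its lowest and highest lung libraries differed 1.51-fold, against 1.71-fold for NKX2-1, 1.94-fold for TBX5, 2.36-fold for FOXA2 and 2.41-fold for CEBPA. Controls held 35.9, 24.4 and 25.6 CPM, and the group means after treatment lay between 31.5 and 33.1 CPM against 28.6 ± 6.31 CPM in controls (SD, n = 3). Every treated group overlapped with controls. The log2 fold changes against control were 0.21, 0.14, 0.21 and 0.18 at 4 h, 6 h, 5 days after the clinical drug and 5 days after Beta-Ac. The widest of their 95% intervals reached from -0.11 to 0.53, and the smallest q was 0.349 (edgeR).

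**Figure D2:**
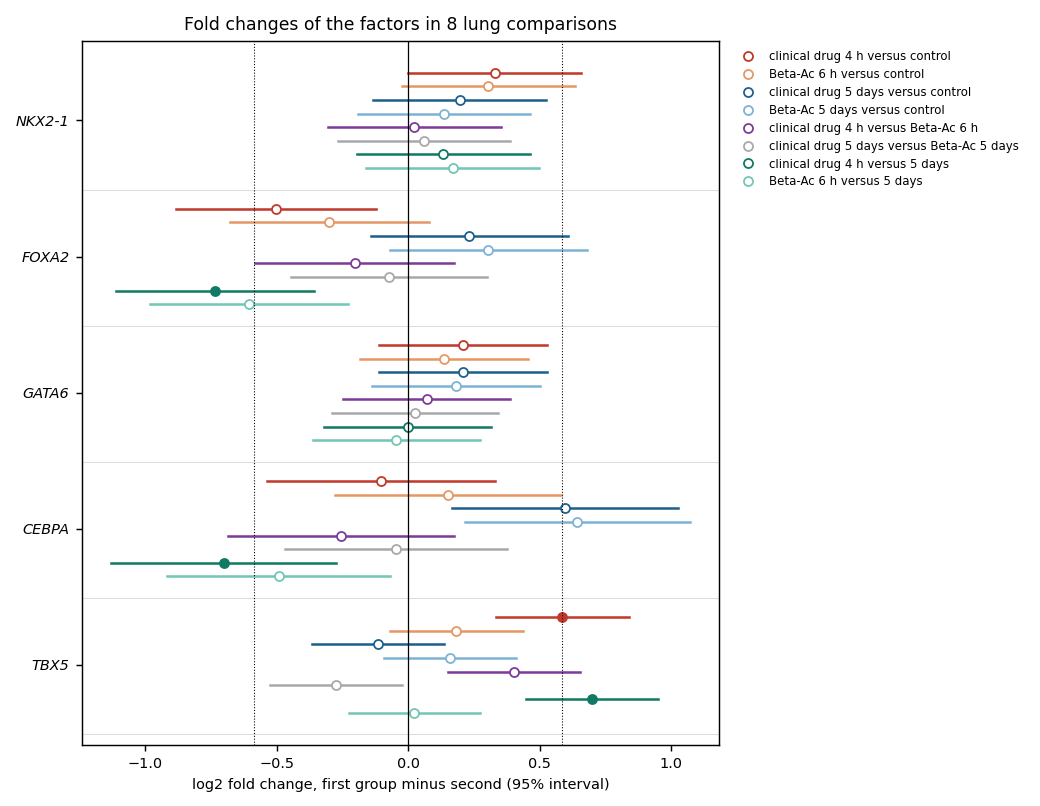
Log2 fold changes of the 5 matched factors (rows) in 8 lung comparisons (colours, 3 libraries per group), with 95% intervals as bars and dotted lines at a 1.5-fold change (horizontal axis, log2 scale). Filled points were called; they are TBX5 at 4 h after the clinical drug against control (0.59) and FOXA2 (-0.74), CEBPA (-0.70) and TBX5 (0.70) at 4 h against 5 days after the clinical drug.

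In all, 1 of the 5 matched factors was called at 4 h after the clinical drug, where 7.4% of the 17644 genes tested were called. Their median log2 fold change was 0.21, beside 0.02 over all genes. The groups did not overlap for 1 of 5 factors, which held for 21.3% of all genes. At 6 h after Beta-Ac, 0 of 5 were called and 0 of 5 had an unadjusted p under 0.05 (edgeR), where 0.442% of all genes were called. At 5 days 0 of 5 were called for either drug. There 0% and 0.00567% of all genes were called after the clinical drug and Beta-Ac, and 1 of 5 factors, CEBPA, had an unadjusted p under 0.05 in each (edgeR). CEBPA alone of the 5 did not overlap with controls at 5 days after Beta-Ac, a pattern found for 12.1% of all genes. DESeq2 called 0 of the 5 in each of these comparisons, including that at 4 h. All 4 treated groups were compared with the same 3 controls, so their fold changes are not independent of each other.

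The drugs were also set against each other, with 5 factors tested in each comparison. Between the early groups, TBX5 was higher 4 h after the clinical drug than at the 6 h point of Beta-Ac by 0.40 ± 0.12 on the log2 scale (SE, edgeR q = 0.0432). The animal numbers at 4 h begin with 15 and those at 6 h with 16 or 17. The difference is a fold change of 1.32, below the limit, so 0 of 5 factors were called, where 6.74% of all genes were called. The TBX5 levels of these groups did not overlap, as was the case for 22.4% of all genes. The q of this difference rose above 0.1 without 15-85 (0.109), without 15-97 (0.142) and without 17-254 (0.125). The basal airway marker sum did not overlap between these groups, at 4.11 to 7.55 CPM at 4 h and 10.1 to 11.6 CPM at 6 h. Its part in the TBX5 difference was not tested. For the other 4 factors the 95% interval of the log2 difference was -0.30 to 0.35 for NKX2-1, -0.58 to 0.18 for FOXA2, -0.25 to 0.39 for GATA6 and -0.69 to 0.17 for CEBPA, and their q values ran from 0.312 to 0.590 (edgeR). By DESeq2 0 of 5 were called.

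At 5 days 0 of 5 factors were called between the drugs, by edgeR or DESeq2, and so were 0% of all genes by edgeR. TBX5 was lower after the clinical drug than after Beta-Ac by a log2 difference of -0.27 (95% interval -0.52 to -0.02, edgeR unadjusted p = 0.0353, q = 0.999). The groups overlapped by a single library on each side, 16-115 at 164 CPM and 16-128 at 163 CPM. The endothelial marker sum did not overlap, at 2876 to 3105 CPM after the clinical drug and 2507 to 2682 CPM after Beta-Ac. Its part in the TBX5 difference was not tested. The log2 differences of the other 4 factors were between -0.07 and 0.06, with intervals within -0.47 and 0.39.

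The early and late groups were then compared within each drug, which shares no control library. This comparison was added after the levels had been seen. All animals at 4 h had numbers beginning with 15 and all at 5 days after the clinical drug numbers beginning with 16, so the time and whatever the number stands for cannot be told apart. For the clinical drug 3 of 5 factors were called, where 10.4% of all genes were called. TBX5 was higher at 4 h than at 5 days by 0.70 ± 0.12 on the log2 scale (SE, edgeR q = 0.00146). FOXA2 was lower at 4 h, with a log2 difference of -0.74 ± 0.18 (SE, edgeR q = 0.0120), and CEBPA was lower by a log2 difference of -0.70 ± 0.20 (SE, edgeR q = 0.0268). The levels of TBX5 and FOXA2 did not overlap between the times, which held for 29.1% of all genes, whereas those of CEBPA did, by 15-81 at 10.5 CPM and 16-126 at 10.1 CPM. Without 16-115 the CEBPA difference was -0.57 and no longer called (edgeR q = 0.117). The basal airway marker sum did not overlap between these times, at 4.11 to 7.55 CPM at 4 h and 8.25 to 9.86 CPM at 5 days. Its part in the differences was not tested. Without normalization factors, a setting that put the median log2 difference of all genes at -0.09, TBX5 was still higher and FOXA2 and CEBPA still lower at 4 h.

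For Beta-Ac, FOXA2 had a log2 difference of -0.61 ± 0.18 between 6 h and 5 days (SE, edgeR q = 0.255) and CEBPA one of -0.49 ± 0.20 (SE, edgeR q = 0.479). The libraries of the 2 times did not overlap for either gene, which held for 13% of all genes. The endothelial marker sum did not overlap either, at 3084 to 3229 CPM at 6 h and 2507 to 2682 CPM at 5 days. Its part in these differences was not tested. None of the 5 factors was called by edgeR, with 2 at an unadjusted p under 0.05, where 0.261% of all genes were called. DESeq2 called FOXA2 (adjusted p = 0.0675). TBX5 showed a log2 difference of 0.02 (95% interval -0.23 to 0.28, edgeR q = 0.861). With both drugs pooled at 5 days, 0 of 5 factors were called against control by edgeR or DESeq2, where edgeR called 0.0113% of all genes.

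**Figure D3:**
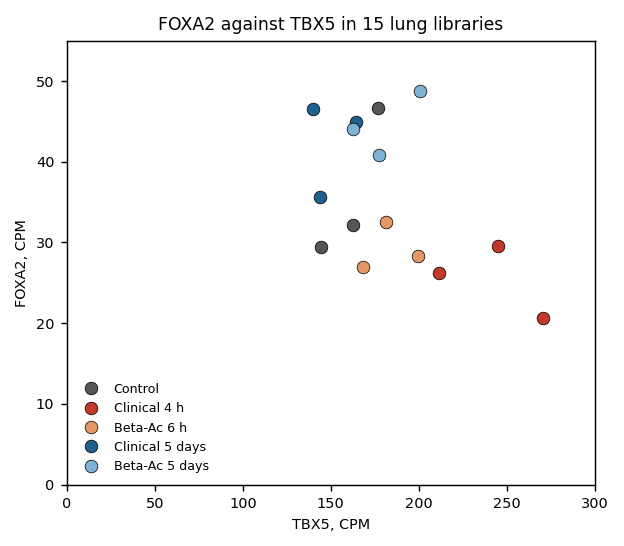
FOXA2 level (vertical axis, CPM) against TBX5 level (horizontal axis, CPM) in the 15 lung libraries, 1 point per library, coloured by group. The 3 libraries at 4 h after the clinical drug lie at the right with TBX5 from 211 to 271 CPM and FOXA2 from 20.7 to 29.5 CPM, and the libraries at 5 days lie higher, with FOXA2 from 35.6 to 48.8 CPM.

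Across the 15 lung libraries the factors did not all vary together. FOXA2 and CEBPA had a Pearson r of 0.63 (Spearman rho 0.49), which was -0.01 once each group's mean was removed. FOXA2 and TBX5 had an r of -0.53 (rho -0.40), which became 0.24 within groups. For these pairs the relation thus lay between the groups. NKX2-1 and GATA6 had an r of 0.62 (rho 0.37) and kept 0.58 within groups. NKX2-1 and FOXA2 went the other way, with -0.06 overall and 0.56 within groups. These values describe 15 libraries that share groups and scaling, and carry no test.

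The 3 genes with a symbol whose log2 CPM had the highest r with each factor over the 15 libraries were listed as a description. For TBX5 they were SAP30BP (r = 0.93), PIAS3 (r = 0.91) and TEAD3 (r = 0.91), the last being a partner of the Hippo pathway coactivators. TEAD3 stood at 49.9 ± 7.18 CPM in controls and 65.2 ± 4.86 CPM at 4 h after the clinical drug (SD, n = 3 each). For FOXA2 they were the ephrin receptor EPHB3 (r = 0.91), the retinoic acid receptor RARA (r = 0.91) and IGFALS (r = 0.90). RARA stood at 128 ± 14.8 CPM in controls and 98.7 ± 9.63 CPM at 4 h after the clinical drug (SD, n = 3 each). At 5 days it stood at 131 ± 9.90 CPM after the clinical drug and 148 ± 9.79 CPM after Beta-Ac (SD, n = 3 each). CEBPA was followed by DHX33 (r = 0.88), SLC22A23 (r = 0.87) and STEAP4 (r = 0.86), a metalloreductase. STEAP4 stood at 22.2 ± 9.84 CPM in controls, and at 10.7 ± 5.37 CPM at 4 h and 39.9 ± 4.71 CPM at 5 days after the clinical drug (SD, n = 3 each). The closest for NKX2-1 were TTLL12 (r = 0.82), KAT5 (r = 0.79) and the epithelial splicing regulator ESRP2 (r = 0.79), and for GATA6 they were FOXK2 (r = 0.80), LSM14B (r = 0.78) and GID4 (r = 0.78). These genes had the highest positive r among all tested genes that have a symbol, so high values are built into the choice.

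**Figure D4:**
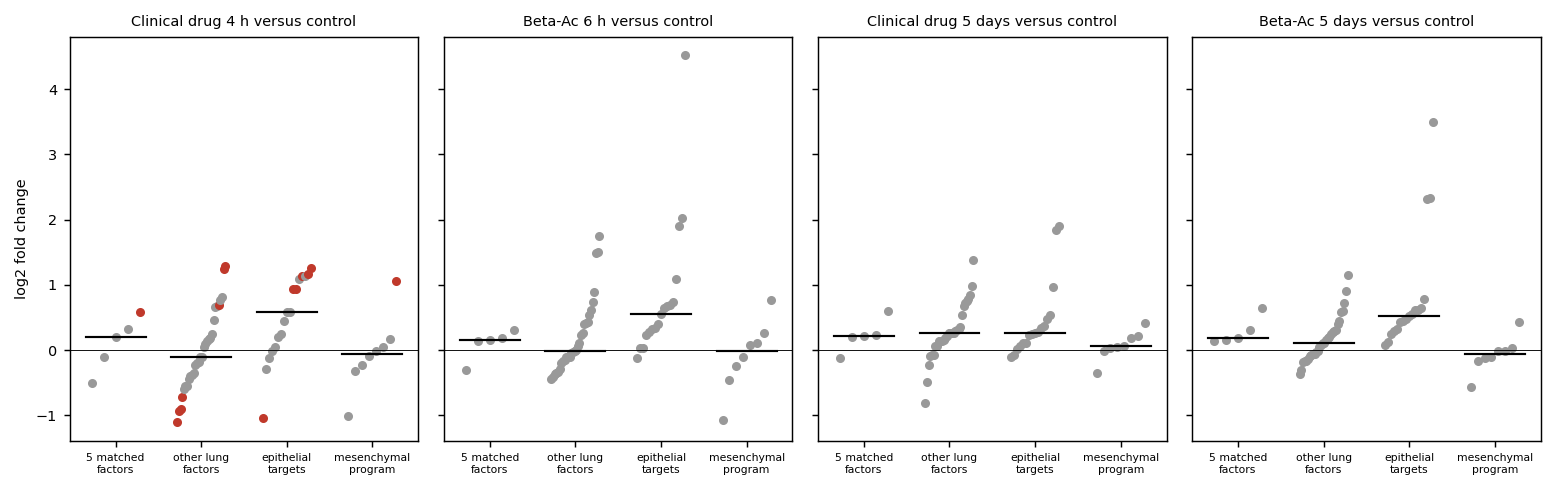
Log2 fold changes against control (vertical axis) of the 5 matched factors and of the tested genes of 3 lists (horizontal axis), 1 panel per treated group. Points are genes, red where called, and lines are medians. Red points occur only in the panel of 4 h after the clinical drug, where 7.4% of all genes were called. They are 1 factor, 7 other lung factors, 6 epithelial targets and 1 gene of the mesenchymal program.

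Other factors of lung development moved in both directions at 4 h after the clinical drug. Of 42 listed, 30 were tested, of which 3 rose and 4 fell, where 7.4% of all genes were called. Their median log2 fold change was -0.11 beside 0.02 over all genes. HOPX, a homeodomain protein of alveolar type I cells, rose from 194 ± 28.04 to 477 ± 94.0 CPM (SD, n = 3 each, edgeR q = 0.000143). CEBPD, a relative of CEBPA and a known glucocorticoid target, rose by 1.24 on the log2 scale (edgeR q = 0.0465), and ETV5, a factor downstream of FGF signals at the distal tips, rose by 0.70 (edgeR q = 0.0479). SOX4 fell from 80.0 ± 13.3 to 37.3 ± 2.58 CPM (SD, n = 3 each, edgeR q = 0.00269). FOXF2, a forkhead factor of the mesenchyme, and GLI2 and GLI3, which carry hedgehog signals in it, had log2 fold changes of -0.91, -0.72 and -0.93 (edgeR q = 0.00521, 0.0544 and 0.0174). The close relatives FOXA3 and GATA4 were measured below 1 CPM on average in both groups, and CEBPB and TBX2 were not matched.

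Of 22 genes listed as epithelial targets, 17 were tested for a change. Whether the factors control these genes was not tested. Soon after the clinical drug, at 4 h, 5 of the 17 rose and 1 fell, where 7.4% of all genes were called. The median log2 fold change was 0.58, beside 0.02 over all genes. SFTPC, the surfactant protein made by alveolar type II cells, rose from 3511 ± 1373 to 7706 ± 1975 CPM (SD, n = 3 each, edgeR q = 0.0178). The lamellar body transporter ABCA3 (0.93, edgeR q = 0.00759), the lamellar body protein LAMP3 (1.25, edgeR q = 0.0118), the tight junction protein CLDN18 (0.93, edgeR q = 0.00198) and the sodium channel subunit SCNN1A (1.17, edgeR q = 0.00354) rose on the log2 scale. WNT7B, a Wnt ligand of the distal epithelium, had a log2 fold change of -1.04 (edgeR q = 0.0479). SFTPB had a log2 fold change of 0.58 (edgeR q = 0.0930), just under the fold change required, and SCGB1A1, the club cell secretoglobin, one of 0.58 (edgeR q = 0.550). In the mesenchymal program 1 of 8 tested genes was called, the hedgehog interacting protein HHIP, which rose by 1.05 (edgeR q = 0.0245), and FGF10 was not matched. The median there was -0.05, beside 0.02 over all genes, of which 7.4% were called.

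None of the genes in these 3 lists was called in the other comparisons with control. The medians of the epithelial targets were 0.55 at 6 h after Beta-Ac, 0.26 at 5 days after the clinical drug and 0.53 at 5 days after Beta-Ac, beside 0.02, 0.00 and 0.01 over all genes. The median log2 fold changes of the 5 matched factors there were 0.15, 0.21 and 0.18. CEBPD at 6 h had a log2 fold change of 1.49 (edgeR q = 0.130), with 87.7 ± 58.4 CPM (SD, n = 3). Between the early groups of the drugs, 7 of 30 other factors were called, 1 higher and 6 lower after the clinical drug, and 4 of 17 epithelial targets, 1 higher and 3 lower, where 6.74% of all genes were called.

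Markers of lung cell types were present in the samples. The summed level of 7 of 8 epithelial markers was 613 to 729 CPM in controls, 620.4 to 829 CPM with the clinical drug at 4 h and 621 to 803 CPM with Beta-Ac at 6 h. The 5-day libraries summed to 636 to 694 CPM after the clinical drug and 627 to 838 CPM after Beta-Ac, so no group stood apart from controls. Over the 15 libraries the log2 epithelial sum had an r of 0.50 with NKX2-1, 0.43 with GATA6, 0.32 with TBX5, 0.16 with FOXA2 and -0.16 with CEBPA, given as a description. The log2 mesenchymal sum had an r of 0.06 with TBX5. Ciliated airway markers, 5 of 7 genes, summed to 68.1 to 99.4 CPM at 6 h after Beta-Ac against 15.8 to 60.7 CPM in controls, and their part in the levels of the factors at 6 h was not tested.

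The hippocampus of fetuses in the same series offered a tissue in which most of these genes are known to be silent. Over 15 hippocampus libraries of 18.3 to 29.3 M reads, FOXA2 had 0 reads in 13 libraries and at most 1 read. TBX5 had 0 reads in 10 libraries and at most 4. NKX2-1 was read 2 to 12 times per library, with a median of 0.35 CPM, and GATA6 from 0 to 48 times, with a median of 0.05 CPM. CEBPA was the exception, with at least 38 reads in every library and a median of 3.06 CPM. Library names were read as saline control (CTL), Beta-Ac (BAC) and the clinical drug Celestone (CEL), with 5 days given for each. Some library numbers match those of lung animals, such as CTL113 and 16-113. In the groups named by the libraries, CEBPA stood at 2.90 ± 1.09 CPM in CTL, 3.52 ± 1.18 CPM in BAC and 2.85 ± 1.14 CPM in CEL libraries (SD, n = 5 each). The ranges of these groups overlapped. The tissues were processed separately, so no test was made between them.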

How the data were processed

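RNA from fetal lung (15 libraries) and hippocampus (15 libraries) had been sequenced as 75 bp paired-end reads. The deposited values are raw counts of reads per Ensembl gene, which the authors made by alignment to MMUL1.0 and featureCounts. The methods name Bowtie 2, while the submitters' processing notes for lung list Bowtie 1.2.1.1 and featureCounts 1.5.1. Lung groups followed the labels. Hippocampus groups followed the names of the libraries, although the fields for treatment and dose disagree with them.

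Lung counts were filtered at 7 reads or more in 3 or more libraries, normalized by TMM and tested with edgeR 4.0.16 (quasi-likelihood) in R 4.3.3. The prior counts were 0.125 for fold changes and 2 for log2 CPM. Intervals are at 95%. Hippocampus counts, kept at 7 reads in 5 libraries, were only described. The test was checked on simulated counts. At 4 h after the clinical drug against control it called 55% of simulated 2-fold changes and 84% of 4-fold changes. Against 6 h after Beta-Ac it called 55% and 89%. Smaller changes were not simulated.

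The factors, gene lists and markers were chosen with earlier results of these data known. Named genes were all listed factors, the 3 nearest genes to each, called list genes and a few relatives. Alternatives were RLE, filterByExpr, no filter, no fold change limit, Benjamini-Hochberg adjustment, DESeq2 1.42.0, only the compared groups, each library left out and, added later, no normalization factors. No sequence or genome position was used. The spread between libraries sets the precision, and it holds both differences between animals and counting error. Counting error weighs most on CEBPA, which had the smallest counts of the matched factors.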

Additional observations from a re-analysis of the deposited data

Results flagged for a closer look

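The following differences between treated groups had p under 0.05 and q under 0.1 in the edgeR test. TBX5 was higher at 4 h after the clinical drug than at 6 h after Beta-Ac by 0.40 on the log2 scale (edgeR q = 0.0432), with a fold change under 1.5. Time, dose and formulation differ together in this comparison, and the animal numbers begin with 15 at 4 h and with 16 or 17 at 6 h. The q rose above 0.1 without 15-85, without 15-97 and without 17-254. The comparison of 4 h with 5 days after the clinical drug was added after the levels had been seen. There the log2 differences were 0.70 for TBX5, -0.74 for FOXA2 and -0.70 for CEBPA (edgeR q = 0.00146, 0.0120 and 0.0268), and 10.4% of all genes were called. The call of CEBPA was lost without 16-115. In that comparison the animal numbers begin with 15 at 4 h and with 16 at 5 days, so time and number cannot be told apart.

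In hippocampus, single libraries lay far from the others of their group in 6 of 14 groups tested, a rule that chance meets in about 1 in 20 groups of continuous values. That rate does not apply here, since 1 read among zeros, or 1 zero among single reads, always meets the rule. FOXA2 was listed at 0.0400 CPM in CTL212 and 0.0412 CPM in BAC130, each from 1 read, while the rest of each group had 0 reads. TBX5 was listed at 0.159 CPM in CTL209 and 0.162 CPM in CEL126, from at most 4 reads. GATA6 was at 0 CPM in CEL238, in a group with at most 1 read per library. GATA6 in CTL212 was the exception, with 48 reads and 1.92 CPM, while the median of the control group was 0.08 CPM.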

How the results depend on the processing

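Over the 45 log2 fold changes of the factors and 555 alternative values, 518 kept their direction and their side of the limits, 10 lost the call, 4 gained it and 23 changed sign, the last in 12 fold changes that were not called. At 4 h after the clinical drug against control, the count of factors called was 1, TBX5. It was 2 without the fold change limit (TBX5 and FOXA2), 0 with RLE, filterByExpr, no filter, DESeq2 or only the compared groups, where TBX5 had a fold change just under 1.5, and 0 to 1 with a library left out. The 1 was FOXA2 instead of TBX5 without 15-85, without 16-113 or without normalization factors. Without the fold change limit 1 factor, TBX5, was called between the early groups. DESeq2 called 1, FOXA2, between 6 h and 5 days after Beta-Ac. The other causes were not tested.

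Without normalization factors the median log2 fold change of all genes was -0.10 at 4 h after the clinical drug, against control and against 6 h after Beta-Ac. There the difference between the early groups became -0.0559 for NKX2-1 and -0.0091 for GATA6, and that of TBX5 for both drugs at 5 days against control became -0.0067. With single libraries left out, the values that changed sign ran from -0.35 to 0.0496 (CEBPA, 4 h against control), from -0.0059 to 0.34 (NKX2-1, Beta-Ac at 5 days against control), and between the early groups from -0.10 to 0.092 (NKX2-1) and from -0.0234 to 0.19 (GATA6). Between the drugs at 5 days they ran from -0.0189 to 0.11 (NKX2-1), -0.15 to 0.0366 (FOXA2), -0.02 to 0.0542 (GATA6) and -0.18 to 0.12 (CEBPA). Between early and late times they ran from -0.11 to 0.071 (GATA6, clinical drug), -0.17 to 0.0174 (GATA6, Beta-Ac) and -0.0519 to 0.0954 (TBX5, Beta-Ac), and for TBX5 with both drugs at 5 days against control from -0.0503 to 0.0925.

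Counts of all genes called ranged from 884 to 2104 at 4 h against control (1306), from 9 to 247 at 6 h (78), from 0 to 16 and from 0 to 40 at 5 days after the clinical drug (0) and Beta-Ac (1), from 314 to 2389 between the early groups (1189), from 0 to 8 between the drugs at 5 days (0), from 1256 to 3306 between 4 h and 5 days (1833), from 5 to 185 between 6 h and 5 days (46) and from 0 to 33 with both drugs at 5 days (2). CEBPA at 5 days did not pass the correction over all genes under any setting tried. No paired analysis was possible because the lung groups compared share no animal and no replicate number in the labels, and no test was made between lung and hippocampus.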
